A study of Mus musculus with 6 samples.

Results

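Extracellular vesicles (EVs) from mouse colon and from cultured dendritic cells were compared for 7 microRNAs (miRNAs) that are better known from epithelial and endocrine cells than from blood cells. These were mmu-miR-375-3p, mmu-miR-203-3p, mmu-miR-205-5p, mmu-miR-31-5p, mmu-miR-224-5p, mmu-miR-190a-5p and mmu-miR-7a-5p, named below without the species prefix. They are 7 of the 1966 mature miRNAs listed in the count table, and they were chosen by name, as single miRNAs of enteroendocrine, squamous or other epithelial cells that lie outside the miR-200, miR-192 and miR-183 groups. The counts of these same libraries in colon and BMDC EVs were already known when the names were selected, so they count as used in the choice, and the members' differences between the sources are given as a description. Counts of members called are printed beside the share of all miRNAs called and support nothing, and intervals on the members' ratios cover counting error only. The data go against the group's name in 2 cases: miR-31-5p was higher in vesicles of dendritic cells, and miR-7a-5p was at a similar level in both sources.

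The libraries were 3 of colon EVs and 3 of EVs from bone marrow–derived dendritic cells (BMDCs), all from mice of the strain Rab27A fl/fl, in which an exon of the vesicle-docking gene Rab27a is flanked by loxP sites and for which the labels give no Cre. The study's mice were on the C57BL/6 background, of both sexes and 8 to 12 weeks old. Whole colons without their contents were cultured for 16 hours in medium with exosome-depleted serum, their vesicles were spun down and run on an iodixanol density gradient, and fraction 2 was sequenced, whereas bone marrow cells were grown with GM-CSF for 7 days in complete RPMI. The labels give the gradient for colon samples only, and the study's methods describe it for colon EVs, while its results text names it for both sources. Source and medium, and the gradient if the labels hold, differ together and cannot be told apart, a colon explant holds epithelium along with muscle, vessel and immune cells, and it is not stated whether the 3 libraries of a source came from separate animals or cultures, so that SDs and adjusted p-values measure the spread between these libraries only.

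A miRNA is cut from a hairpin transcript, and either arm of the hairpin (5p or 3p) can be kept as the mature strand that represses messenger RNAs paired to its seed, bases 2 to 8. Some are made in a narrow range of cells: miR-375 and miR-7 in the hormone-secreting cells of islets and gut, miR-203 and miR-205 in stratified epithelia such as the skin. In vesicles, such miRNAs travel with the RNA of whichever cells shed them, so fewer cells of a type and less RNA per cell cannot be told apart in a mixed preparation.

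Mature sequences were found for 6 of the 7 members in RefSeq annotation of GRCm38.p6. They are shown so that seeds, and whole sequences of members and relatives, can be compared, with capitals for bases 2 to 8.

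miR-203-3p: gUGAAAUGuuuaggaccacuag
miR-205-5p: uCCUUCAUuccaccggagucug
miR-31-5p: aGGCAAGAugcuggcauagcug
miR-224-5p: uAAGUCACuagugguuccguu
miR-190a-5p: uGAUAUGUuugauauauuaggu
miR-190b-5p, a relative of miR-190a-5p: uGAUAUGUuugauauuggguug
miR-7a-5p: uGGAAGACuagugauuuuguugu
miR-7b-5p, a relative of miR-7a-5p: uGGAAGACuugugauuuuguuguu

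No seed was shared among the 6 members with a sequence. Of the 1675 listed miRNAs that have a mature sequence, miR-7b-5p alone carried the seed of miR-7a-5p and miR-190b-5p alone that of miR-190a-5p, and the seeds of miR-203-3p, miR-205-5p, miR-31-5p and miR-224-5p were found in no other miRNA. Over their shared length miR-7b-5p differs from miR-7a-5p by A10U, counted from 1 at the 5′ end, and is longer by a base. miR-190b-5p differs from miR-190a-5p in its 3′ end only, by A16U, U17G, U18G, A19G, G20U, G21U and U22G.

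The hairpins lie at separate places in the genome (GRCm38 coordinates, GENCODE genes). Mir375 (chr1:74900658-74900721, minus strand), Mir203 (chr12:112130880-112130955, plus strand) and the second miR-7a hairpin, Mir7-2 (chr7:78888277-78888373, plus strand), overlap no other annotated gene. Mir205 (chr1:193507463-193507530, minus strand) and Mir31 (chr4:88910557-88910662, minus strand) lie in exons of the noncoding RNAs 4631405K08Rik and AL805899.1. Introns hold the remaining hairpins: Mir224 (chrX:72261031-72261112, minus strand) in the GABA receptor gene Gabre, Mir190a (chr9:67236660-67236726, minus strand) in the talin gene Tln2, and Mir7-1 (chr13:58392779-58392886, minus strand) in Hnrnpk, which encodes an RNA-binding protein, all on the strand of the host gene.

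Depth was low and uneven. The estimated counts, which are reads per mature miRNA and need not be whole, summed to 173358 to 645303 in the colon EV libraries and 83997 to 178454 in the BMDC EV libraries, so that 3 counts stood for 4.65 to 17.3 CPM (a count divided by its library's total, times 1000000) in colon and 16.8 to 35.7 CPM in BMDC EVs. Normalized counts below are counts scaled by edgeR's TMM factors to a common library of 190599. The labelled sources carried their markers: 8 of 8 miRNAs of general intestinal epithelium (the miR-200 family, miR-192, miR-194 and miR-215) made up 22.4% to 29.8% of colon EV counts and 0.374% to 0.791% of BMDC EV counts, and 7 of 7 hematopoietic and dendritic cell miRNAs (among them miR-142a, miR-223 and miR-155) made up 30.7% to 32.3% of BMDC EV counts and 0.514% to 1.19% of colon EV counts. Of the 6 smooth muscle and mesenchyme markers, which the explant could also hold, 2 reached the count minimum, and the list took 0.134% to 0.207% of colon EV counts. BMDC EVs also carried markers of other tissues. The liver marker miR-122-5p had 46, 25 and 24 counts in colon EVs and 101.53, 62.5 and 101.67 in BMDC EVs. The endothelial markers took 0.0679% to 0.103% of colon EV counts and 0.0239% to 0.0646% of BMDC EV counts. Where these came from was not tested.

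Between the sources, 220 miRNAs reached 10 counts in 3 or more libraries and were compared with edgeR's quasi-likelihood test, and an adjusted p under 0.05 was taken as a call. Called were 76.8% of them, 36.4% as higher in colon EVs and 40.5% as higher in BMDC EVs, and in 81.8% the 3 colon EV libraries did not overlap the 3 BMDC EV libraries in normalized count. All 7 members reached the minimum, 4 of them through colon EVs alone, 1 (miR-31-5p) through BMDC EVs alone and 2 through libraries of both sources. Among the 7, 6 were called, 5 as higher in colon EVs and 1 as higher in BMDC EVs, and 7 did not overlap; since the members were chosen with this contrast in view and most passed through a single source, nothing is read from these counts. The fitted log2 fold changes of all 220 miRNAs (BMDC EVs over colon EVs, so that a negative value is a higher level in colon EVs) ran from −7.49 to 7.83 with a median of 0.19.

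The members were a small part of the vesicle miRNA. Together they took 0.656% ± 0.0584 of colon EV counts and 0.112% ± 0.0194 of BMDC EV counts (SD, n = 3 each). The 5 members that were higher in colon EVs, miR-375-3p, miR-203-3p, miR-205-5p, miR-224-5p and miR-190a-5p, went from 0.577% ± 0.0507 of the counts there to 0.0181% ± 0.00567 in BMDC EVs. miR-7a-5p took 0.0774% ± 0.0137 and 0.0778% ± 0.00960, and so made up most of what was left in BMDC EVs.

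**Figure D1:**
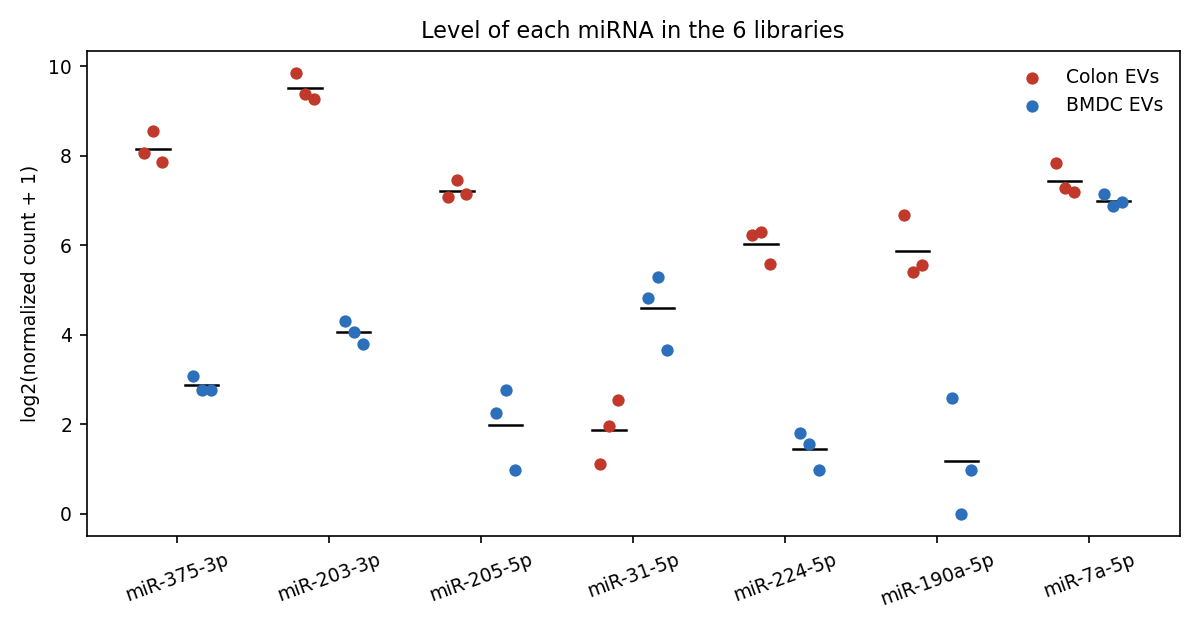
Level of each member in the 6 libraries, as log2 of the normalized count plus 1 (vertical axis), with colon EVs in red, BMDC EVs in blue, a point per library and a bar at each mean of 3. For 5 members the colon EV points lie far above the BMDC EV points, for miR-31-5p they lie below, and for miR-7a-5p both sources sit close together.

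Among the endocrine members, miR-375-3p, which restrains insulin release in islet cells and marks secretory cells of the gut, was well above the limit of 3 counts in colon EVs and close to it in BMDC EVs. Its estimated counts were 694, 392.14 and 191 in the colon EV libraries and 6, 3 and 6 in the BMDC EV libraries. Every colon EV library was far above every BMDC EV library. Normalized, this was 289 ± 74.9 against 6.33 ± 0.965 (SD, n = 3 each), rank 57 and rank 198 of 220, and the fitted log2 fold change was −5.48 (SE 0.382). Summed over libraries, 1277 colon EV counts stood against 15, a normalized ratio of 44.6 with an exact 95% interval of 27.0 to 80.0, which covers counting error only. Its normalized count was highest in colon library 2 (373) and lower in libraries 1 (264) and 3 (230).

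miR-7a-5p, the other endocrine member, which is among the most abundant miRNAs of islets and is also found in neurons, behaved differently. Estimated counts were 601.17, 161 and 121 in colon EVs and 112.7, 60.67 and 129 in BMDC EVs. Normalized counts were 229, 153 and 146 against 140, 116 and 124, so that the lowest colon EV library stood just above the highest BMDC EV library. The means were 176 ± 46.0 and 127 ± 11.9 (SD, n = 3 each), rank 69 and rank 77, with a fitted log2 fold change of −0.47 (SE 0.273). It was the 1 member not called as reported, and it was called with no filter on low counts (−1.02) and without colon library 2 (−0.83) or 3 (−0.85), so its call turned with the setting. The ratio of pooled counts was 1.53 (95% interval 1.34 to 1.75) in favor of colon EVs. On the scale of library totals alone it was 1.08 and the sources overlapped, at 932, 692 and 698 CPM in colon EVs and 889, 722 and 723 CPM in BMDC EVs. The direction of this member thus depended on the scaling: the fitted log2 fold change was 0.013 by library size alone, a scaling under which the median of all 220 miRNAs moved from 0.19 to 0.64, and DESeq2's size factors and the upper quartile put that median at 0.06 and 0.39.

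Among the squamous members, miR-203-3p, a miRNA of differentiating skin that represses the stem cell factor p63, was the most abundant member in colon EVs. It had 2430.62, 703.03 and 515.08 estimated counts in colon EVs and 15.2, 8.17 and 13.25 in BMDC EVs. The sources were far apart in every library. Normalized counts were 738 ± 164 and 15.8 ± 3.04 (SD, n = 3 each), rank 44 and rank 179, the fitted log2 fold change was −5.58 (SE 0.302), and the pooled ratio was 53.1 (95% interval 38.3 to 76.0). Without BMDC library 3 the fitted log2 fold change was −4.97. None of its 6 estimated counts was whole, and how reads that match several miRNAs were divided before deposit is not given in the sources used here. RefSeq places miR-203b-5p, at chr12:112130927-112130946 on the minus strand, within the reverse complement of miR-203-3p; that miRNA was at 0 in all 6 libraries, and miR-203b-3p had 2, 1 and 0 counts in colon EVs.

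miR-205-5p, which with the miR-200 family represses the mesenchymal factors ZEB1 and ZEB2 and is at home in basal and squamous cells, showed the same split at a lower level. Colon EVs had 350, 183 and 116 counts and BMDC EVs 3, 3 and 1. No BMDC EV library exceeded 3 counts, so no fitted fold is given. Normalized counts were 149 ± 22.1 in colon EVs, rank 79, and 3.48 ± 2.40 in BMDC EVs (SD, n = 3 each), and the pooled sums of 649 and 7 counts gave a ratio of 48.6 (95% interval 23.5 to 121). On the log2 scale this is −5.60 for BMDC over colon EVs, and it was −4.99 without BMDC library 3, which held 1 of the 7 counts.

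Of the other members, miR-224-5p had 194, 81 and 39 counts in colon EVs and 2, 1 and 1 in BMDC EVs. The sources did not overlap, at 65.9 ± 16.6 and 1.79 ± 0.767 normalized counts (SD, n = 3 each), and 314 pooled counts against 4 gave a ratio of 41.2 (95% interval 15.9 to 152). Its neighbor miR-452, whose hairpin also lies in an intron of Gabre, 1111 bases from that of miR-224, had 1 count in all. That count was of the 5p arm in colon EVs, against 314 counts of miR-224-5p (0.317%, exact 95% interval 0.00804% to 1.76%).

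miR-190a-5p was the member that varied most among those higher in colon EVs. It had 267.17, 43 and 38 counts in colon EVs and 4, 0 and 1 in BMDC EVs. Colon library 1 stood apart, with a normalized count of 102 beside 40.9 and 45.7. The means were 62.8 ± 33.8 and 1.98 ± 2.63 (SD, n = 3 each), the fitted log2 fold change was −4.85 (SE 0.688), and the pooled ratio was 36.5 (95% interval 15.5 to 113). Without BMDC library 1, which held 4 of its 5 BMDC EV counts, the fitted log2 fold change was −6.06, and it was −4.02 without BMDC library 2 and −3.94 without BMDC library 3.

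miR-31-5p, a miRNA of keratinocytes and of intestinal crypt cells, went the other way. Its counts were 3, 3 and 4 in colon EVs and 22, 20 and 12 in BMDC EVs, so that it stood at 3 or 4 counts in every colon EV library. Each BMDC EV library exceeded each colon EV library. Normalized counts were 2.94 ± 1.84 in colon EVs, rank 201, and 25.7 ± 13.5 in BMDC EVs, rank 155 (SD, n = 3 each), with a fitted log2 fold change of 3.29 (SE 0.654) and a pooled ratio of 10.3 in favor of BMDC EVs (95% interval 5.19 to 22.7). Without colon library 1 the fitted log2 fold change was 2.39. The BMDC EV libraries themselves ranged from 11.6 in library 3 to 38.4 in library 2.

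**Figure D2:**
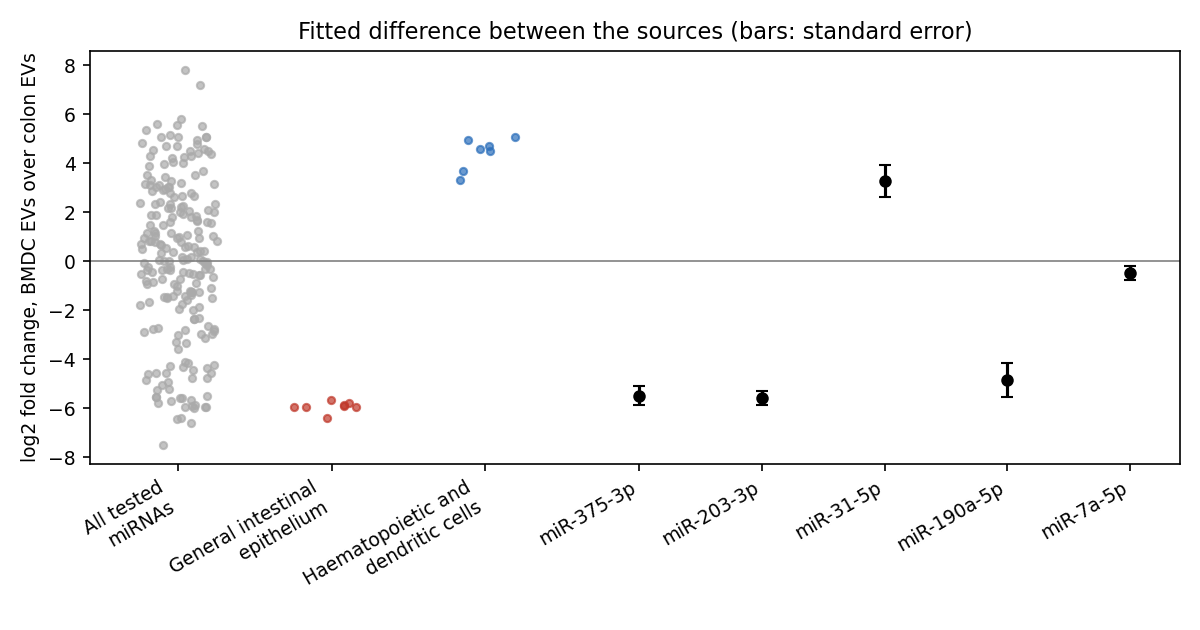
Fitted log2 fold changes, BMDC EVs over colon EVs (vertical axis), of all 220 tested miRNAs (gray), of the 8 epithelial (red) and 7 hematopoietic (blue) markers, and of the 5 members with a fitted value (black, bars are the SE). miR-375-3p (−5.48), miR-203-3p (−5.58) and miR-190a-5p (−4.85) lie at negative values, short of the epithelial markers (−6.41 to −5.65). The tested mesenchymal markers miR-143-3p (−4.76) and miR-199a-3p (−2.35) are drawn only among all tested miRNAs. miR-31-5p lies among the positive values and miR-7a-5p lies close to 0.

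The order of the members differed between the sources. Because each read covers a mature miRNA whole, normalized counts were compared between members without a length correction, although how well each sequence was captured in the library was not measured. In colon EVs the order of mean normalized counts was miR-203-3p, miR-375-3p, miR-7a-5p, miR-205-5p, miR-224-5p, miR-190a-5p and miR-31-5p, where miR-7a-5p overlapped miR-205-5p and miR-224-5p overlapped miR-190a-5p over the 3 libraries. In BMDC EVs it was miR-7a-5p, miR-31-5p, miR-203-3p, miR-375-3p, miR-205-5p, miR-190a-5p and miR-224-5p, where only the steps from miR-7a-5p to miR-31-5p and from miR-203-3p to miR-375-3p were free of overlap.

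The trace of each colon member in BMDC EVs was set beside that of general epithelial markers. The BMDC EV level was 1.88% to 2.74% of the colon EV level for the 5 members higher in colon EVs (median 2.24%), and 1.00% to 1.82% for the 8 epithelial markers (median 1.39%), whose fitted log2 fold changes ran from −6.41 to −5.65. Counted per 1000 counts of those 8 markers in the same library, a scale chosen after the data were seen, the 5 members were no longer far apart between the sources. miR-375-3p had 3.61, 7.52 and 4.86 in colon EVs and 7.20, 4.51 and 8.99 in BMDC EVs, and miR-203-3p had 12.7, 13.5 and 13.1 against 18.2, 12.3 and 19.8. For all 5 the ranges of the sources overlapped. The pooled ratios of BMDC EVs over colon EVs on this scale were 1.54 for miR-375-3p (95% interval 0.858 to 2.55), 1.29 for miR-203-3p (0.903 to 1.79), 1.41 for miR-205-5p (0.565 to 2.93), 1.67 for miR-224-5p (0.452 to 4.31) and 1.88 for miR-190a-5p (0.607 to 4.43). All 5 ratios lay above 1, and the trace of each of the 5 members lay above the highest of the 8 markers (1.82%), a shift that was not tested over the members. Each interval taken alone holds 1 and is wide, since it rests on 4 to 36 counts in BMDC EVs.

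The remaining members left that scale by a wide margin. Per 1000 epithelial marker counts, miR-7a-5p had 3.13, 3.09 and 3.08 in colon EVs and 135, 91.3 and 193 in BMDC EVs, a pooled ratio of 44.9 (95% interval 39.3 to 51.2). miR-31-5p had 0.0156, 0.0575 and 0.102 in colon EVs and 26.4, 30.1 and 18.0 in BMDC EVs, a pooled ratio of 707 (356 to 1557). The mesenchymal marker miR-143-3p, which is not a member and was also higher in colon EVs, parted from the scale by far less. Its pooled ratio was 2.21 (1.45 to 3.23), beside 1.88 (0.607 to 4.43) for miR-190a-5p. Unlike the 5 members higher in colon EVs, its interval does not hold 1 and its ranges did not overlap. They were 4.98 to 5.83 in colon EVs and 7.80 to 21.0 in BMDC EVs. Its BMDC EV level was 3.22% of its colon EV level, beside 2.74% for miR-190a-5p. The mesenchyme list did not behave as a whole in this way. Its only other marker that reached the count minimum, miR-199a-3p, kept 17.1% of its colon EV level, with a fitted log2 fold change of −2.35. Per 1000 counts of the 7 hematopoietic markers, miR-31-5p stood at 0.905, 1.41 and 1.94 in colon EVs and 0.566, 0.776 and 0.208 in BMDC EVs, and the ranges did not overlap. By the same measure miR-7a-5p stood at 181, 75.6 and 58.6 in colon EVs against 2.90, 2.35 and 2.24. miR-7a-5p therefore followed neither list across the sources, miR-31-5p was nearer to the hematopoietic list, and which cells shed either was not tested.

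**Figure D3:**
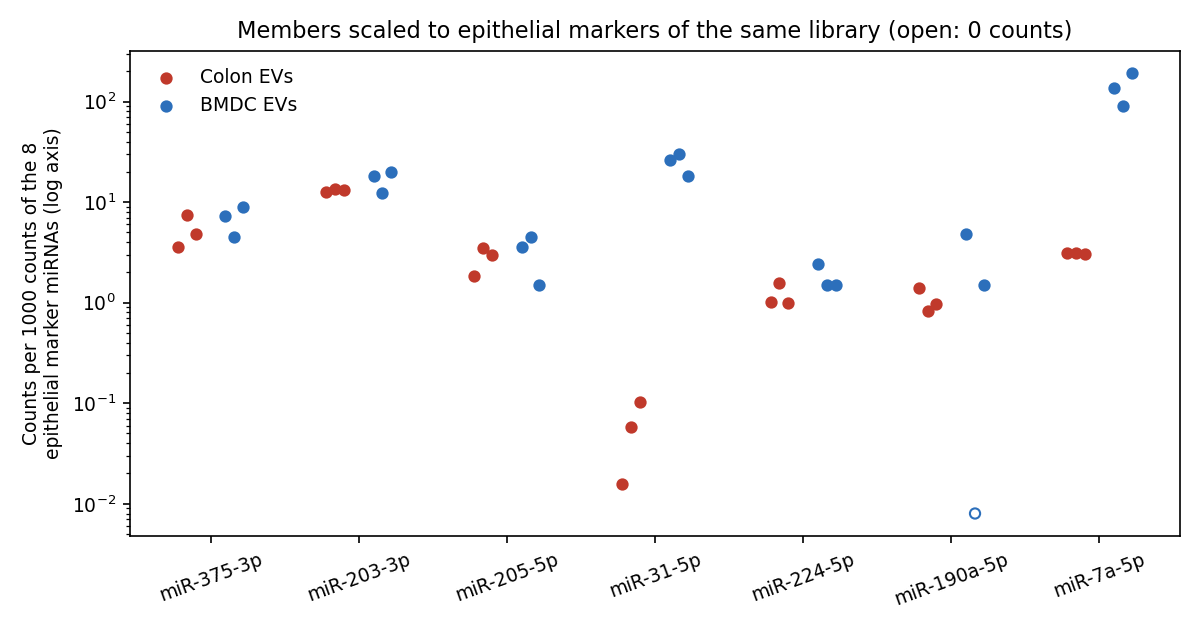
Members per 1000 counts of the 8 general epithelial markers of the same library (vertical axis, log scale), colon EVs in red and BMDC EVs in blue, a point per library; the open point is the BMDC EV library without a count of miR-190a-5p, drawn at the foot of the axis. Red and blue ranges overlap for miR-375-3p, miR-203-3p, miR-205-5p, miR-224-5p and miR-190a-5p and are far apart for miR-31-5p and miR-7a-5p.

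Within colon EVs the ratio of each member to the epithelial markers was also followed from library to library. Its coefficient of variation over the 3 colon libraries was 0.935% for miR-7a-5p and 3.12% for miR-203-3p, where the counting error of the smallest library was 9.09% and 4.41%. For miR-375-3p and miR-205-5p it was 37.4% and 31.1%, with counting errors of 7.24% and 9.28%. Both were highest against the markers in colon library 2, with miR-205-5p at 1.82, 3.51 and 2.95. For miR-224-5p and miR-190a-5p it was 26.9% and 27.8%, with counting errors of 16.0% and 16.2%. For miR-31-5p, which was near the floor in colon EVs, it was 73.9%, with a counting error of 57.7%. These values describe 3 libraries, whose separate origin is not stated, and no difference between members was tested.

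The miRNAs whose pattern over the 6 libraries was most like that of each member are given next, by the Euclidean distance of centered log2 normalized counts. The 1 added to each normalized count shrinks the contrast of members near the floor in BMDC EVs. As no other added value was tried, the neighbors of miR-224-5p, at 65.9 against 1.79, and of miR-205-5p and miR-190a-5p may depend on this. For miR-203-3p they were miR-196b-5p (0.42), miR-429-3p (0.62) and miR-141-3p (0.67), and for miR-375-3p they were miR-196b-5p (0.73), miR-203-3p (0.75) and miR-200c-3p (0.98). For miR-205-5p they were miR-6538 (0.79), miR-200c-3p (0.82) and miR-196b-5p (0.96), and for miR-224-5p they were miR-30a-5p (0.55), miR-6240 (0.61) and miR-183-5p (0.68). miR-190a-5p, whose BMDC EV counts were only 4, 0 and 1, had no close neighbor, with miR-183-5p at 1.44, miR-30a-5p at 1.78 and miR-224-5p at 1.94. For miR-31-5p they were miR-5121 (0.73), miR-5114 (1.02) and miR-877-3p (1.07). miR-7a-5p lay nearest to miR-21a-5p (0.17), miR-22-3p (0.24) and miR-185-5p (0.36). The contrast between the sources, which was known when the members were chosen, is part of these distances, so nearness between miRNAs higher in the same source is not independent of the choice.

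Nearly all counts of each hairpin came from the member's own arm. None of the 8 other arms reached the count minimum, 4 of them were at 0 in all 6 libraries, and the highest count of any was 9. In colon EVs miR-203-5p was 8 of 3657 counts of its hairpin (0.219%, exact 95% interval 0.0945% to 0.431%), miR-375-5p was 2 of 1279 (0.156%) and miR-205-3p was 1 of 650 (0.154%). No count was seen of miR-224-3p beside 314 counts of miR-224-5p (exact 95% upper limit 1.17%), or of miR-190a-3p beside 348 (1.05%). In BMDC EVs miR-31-3p was at 0 beside 54 counts of miR-31-5p (exact 95% upper limit 6.60%).

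miR-7a can come from either of its hairpins, whose 5p arms are the same, and the 3p arms tell them apart. In colon EVs the 3p arm of Mir7-1, the hairpin inside Hnrnpk, was 11 of 894 counts (1.23%, exact 95% interval 0.616% to 2.19%). Colon library 1 held 9 of the 11, and without it the share was 2 of 284 (0.704%). The 3p arm of Mir7-2 was 0 beside 883 counts of miR-7a-5p (exact 95% upper limit 0.417%). In BMDC EVs both 3p arms were at 0 beside 303 counts (exact 95% upper limit 1.21% each), so which hairpin was used there was not detectable at this depth. The relative miR-7b-5p had 7, 9.5 and 5 counts in colon EVs and none in BMDC EVs. It was 22 of 905 counts of the pair in colon EVs (2.43%, exact 95% interval 1.53% to 3.66%), beside 0 of 303 in BMDC EVs (exact 95% upper limit 1.21%). Without colon library 1 the share in colon EVs was 5.05%, and without colon library 2 it was 1.63% with an interval of 0.848% to 2.84%, which holds that limit. miR-7a-5p and miR-7b-5p differ at A10U only over their shared length, and how their reads were assigned is not given in the sources used here. miR-190b-5p was low in both sources, with 8, 0 and 3 counts in colon EVs and 7, 2 and 0 in BMDC EVs, 11 of 359 counts of its pair in colon EVs and 9 of 14 in BMDC EVs.

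Of the other miRNAs of endocrine glands or surface epithelia, miR-153-3p, miR-184-3p, miR-204-5p, miR-211-5p, miR-216a-5p and miR-217-5p, only 1 of 6 reached the count minimum, and the pancreatic miR-216a-5p and miR-217-5p were at 0 in all 6 libraries. The miRNA that did so was miR-184-3p, a miRNA of cornea and islets. It had 4, 4 and 1.25 counts in colon EVs and 26.33, 35 and 55 in BMDC EVs. The sources did not overlap, and the fitted log2 fold change was 4.54 (SE 0.577). It passed the minimum through BMDC EVs alone, as miR-31-5p did, so its call is not used. Of the 3 markers of neurons, cells that also make miR-7, only miR-128-3p was tested and was not called. In colon EVs miR-124-3p was at 0 and miR-137-3p had 2, 0.5 and 0 counts, beside 0, 0 and 1 for miR-137-3p in BMDC EVs.

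**Figure D4:**
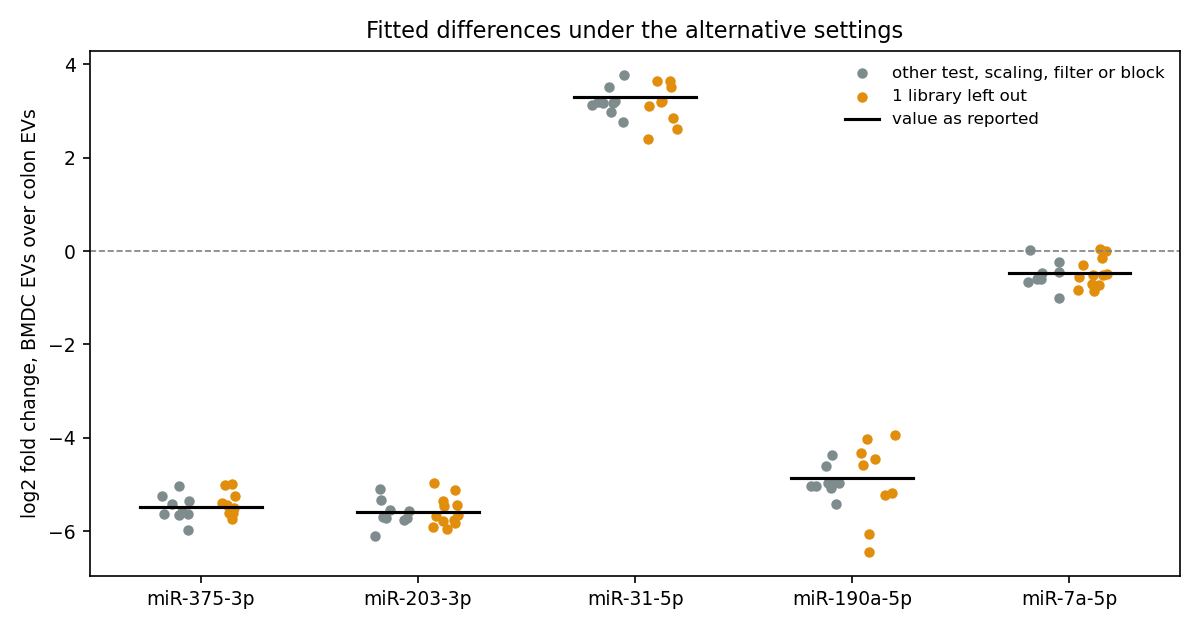
Fitted log2 fold changes, BMDC EVs over colon EVs (vertical axis), of the 5 members with a fitted value, as reported (line), under other tests, scalings, filters or the replicate block (gray) and with a library left out (orange). All points of miR-375-3p, miR-203-3p and miR-190a-5p are below 0 and all of miR-31-5p above, whereas those of miR-7a-5p run from −1.02 to 0.049.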

How the data were processed

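Small RNA libraries (QIAseq miRNA kit) of 3 colon EV and 3 BMDC EV samples were grouped by the sample labels, and 0 columns of the table had no library. Each value is an estimated count of reads for a mature miRNA as the authors deposited it, not normalized and not always whole. The submitters' processing notes name STAR 2.7.6a, featureCounts 1.6.3, DESeq2 1.30.1 and the builds GRCm38 and mm10, without a role. The miRNA annotation, the use of the kit's molecular identifiers and the division of reads that match several miRNAs are not given in the sources used here, so intervals and limits of 3 counts take in counting error alone.

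The counts, rounded, were fitted with edgeR 4.0.16 (R 4.3.3) over the 220 miRNAs that reached 10 counts in 3 or more libraries, using TMM and Benjamini-Hochberg adjustment, after tests on simulated data. SEs are the fold change over the root of F. Pooled ratios carry exact binomial intervals. Chi-square values between libraries of a source (6.25 to 68.4 per degree of freedom) gave no duplicates. Alternatives were DESeq2 1.42.0, limma 3.58.1 with voom, other scalings and filters, a replicate block and each library left out. Arm shares without a colon library were added after the data were seen. The members and lists were chosen with earlier results of these data known. Named were the members, their other arms, relatives and same-seed miRNAs, the marker lists, and the 3 nearest patterns per member (log2 with 1 added). Sequences are from RefSeq.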

Additional observations from a re-analysis of the deposited data

How the results depend on the processing

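The directions of miR-375-3p, miR-203-3p, miR-205-5p, miR-31-5p, miR-224-5p and miR-190a-5p held under every alternative that gave them a value, and the counts of called miRNAs stayed between 133 and 231 (169 as reported). By library size alone the log2 fold change was −5.03 for miR-375-3p and −5.10 for miR-203-3p, the log2 pooled ratio of miR-224-5p was −4.86, and miR-7a-5p changed sign to 0.013. With no filter on low counts, over 771 miRNAs, the values were −5.97, −6.11 and, for miR-7a-5p, −1.02, and 7 members were called. With 1 library left out, log2 fold changes were −5.95 to −4.97 for miR-203-3p and −0.85 to 0.049 for miR-7a-5p. Pooled log2 ratios were −6.05 to −4.99 for miR-205-5p and −5.76 to −4.95 for miR-224-5p. The other members met the filter in only some of these fits. With a BMDC library left out, log2 fold changes were −5.26 to −4.98 for miR-375-3p and −6.06 to −3.94 for miR-190a-5p. With a colon library left out, they were 2.39 to 3.51 for miR-31-5p. miR-7a-5p was 0.049 without BMDC library 2, −0.01 without BMDC library 3 and −0.15 without BMDC library 1, and it was called without colon library 2 (−0.83) or 3 (−0.85); the cause was not tested. Members called fell to 2, 3 and 3 without colon library 1, 2 or 3, since 3 of the 7 then met the filter, and were 5 of 6 tested without any BMDC library. With 10 counts asked of 2 libraries, an alternative added after seeing the data, 6 to 7 were called with any library left out. There miR-190a-5p was −6.44 without BMDC library 1 and −4.33 without colon library 1. Libraries with the same replicate number were not more alike than others (correlations of deviations −0.135 to −0.0475, n = 3 pairs, beside −0.0252 to 0.143, n = 6 pairs). So few pairs cannot show whether the replicates were paired. With a replicate block 164 miRNAs and 6 members were called, with miR-7a-5p at −0.44. Depth limits the members in BMDC EVs most, where miR-205-5p, miR-224-5p and miR-190a-5p summed to 7, 4 and 5 counts.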
